A study of Homo sapiens with 12 samples.

Results

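The genes described here make, break down and regulate polyamines. The list held 10 of the 58721 genes counted: the antizymes OAZ1 and OAZ2, the antizyme inhibitor AZIN1, the synthesis genes ODC1, AMD1, SRM and SMS, and the catabolic genes SAT1, SMOX and PAOX. They were taken by GENCODE symbol, matched to the Ensembl identifier in the count files. No measured value was a criterion, though earlier results of these data were known when the list was chosen. The study profiled ribosomes in HepG2, a human cell line from a liver tumour that is grown as an adherent culture. The knockdown was transient, over 2 days, with siRNA either against the RNA-binding protein IGF2BP3 (siIGF2BP3) or as a control (siControl). All groups, the controls included, were then given cycloheximide at 100 μg/mL for 4 min, which holds ribosomes on the transcript. RNA fragments of 28–30 nt that ribosomes had shielded from RNase I gave the ribosome-protected fragment (RPF) libraries, and the Input libraries measured the transcripts, with 3 of each in either condition.

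Polyamines (putrescine, spermidine and spermine) are small positively charged molecules that bind nucleic acids and are needed for growth. ODC1 makes putrescine, and the enzyme is marked for the proteasome when an antizyme binds it. Antizyme is made only if the ribosome slips forward by a base at a stop codon inside the coding sequence, and polyamines favour that slip, so that the product limits its own synthesis. AMD1 supplies the aminopropyl groups for SRM and SMS, and a very short reading frame in its 5′ leader is known to hold ribosomes when polyamines are plentiful. In liver and other tissues SAT1 acetylates spermidine and spermine for export or for oxidation by PAOX, while SMOX oxidises spermine directly.

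The frameshift windows are shown because they explain why the antizyme genes differ from the other members in what a footprint count can mean. Each window has 30 bases, read 5′ to 3′ on the coding strand of GRCh38, and the capitals mark the last codon of the first frame followed by the stop codon. The annotated coding sequence skips the first base of that stop codon and goes on in the next frame. The window of OAZ1 lies at chr19:2271428-2271457 on the plus strand, that of OAZ2 at chr15:64691501-64691530 on the minus strand, and that of the related antizyme gene OAZ3 at chr1:151767209-151767238 on the plus strand.
OAZ1: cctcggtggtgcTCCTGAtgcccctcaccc
OAZ2: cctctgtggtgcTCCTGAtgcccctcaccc
OAZ3: tgcctccagtgcTCCTGAgtccctagtagg
The OAZ1 and OAZ2 windows shared 29 of 30 bases, and the OAZ1 and OAZ3 windows 14 of 30. The stop codon was codon 69 in OAZ1, codon 33 in OAZ2 and codon 77 in OAZ3. The annotated frames had 228, 189 and 235 codons. The files hold 1 count per gene, so footprints before and after the slip were not separated, and no frameshift rate can be read from them.

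The upstream frame of AMD1 is shown as the other sequence through which polyamines are known to act on a member. It lies at chr6:110874796-110874816 of GRCh38, plus strand, in the 5′ leader of the transcript and 289 nt before the main start codon. The capitals mark its start and stop codons, and it has 6 codons before the stop.
AMD1 upstream frame: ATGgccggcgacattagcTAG
Footprints on it, if any, were counted with the rest of AMD1. An upstream AUG was present in the canonical leader of 6 of the 10 members (OAZ2, AZIN1, ODC1, AMD1, SMS and SAT1), and in 36.8% of 9391 protein-coding genes with a mean of at least 5 CPM in each assay. CPM is the gene's count divided by the library's total and scaled to 1000000 counts.

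Total counts ran from 11219750 to 14797573 in the Input libraries and from 13036423 to 31510601 in the RPF libraries. Protein-coding genes took 96.2–96.6% of Input counts and 82.7–86.2% of RPF counts. The siRNA target checked the labels: IGF2BP3 had Input levels of 133, 129 and 127 CPM with the control siRNA and of 103, 97.9 and 106 CPM after knockdown, and it fell by 1.59 ± 0.08 (log2, SE; edgeR adjusted p = 0.000301) in RPF. All 9 markers of the hepatocyte lineage were above 1 CPM in both assays. Of the 3 leukocyte markers, 2 were also above 1 CPM. LYZ had that list's highest Input mean of 3624 CPM, and CD68 was at 23.0 CPM in siControl Input. PTPRC, which defines leukocytes, was at 0 in the Input means. In each assay 1 of 3 endothelium markers and 1 of 4 fibroblast markers reached 1 CPM. Among the RPF libraries, siIGF2BP3 replicate 1 stood apart, with a mean chi-square per gene of 19.9 and 21.6 against the other replicates of its group. Those, siIGF2BP3 RPF replicates 2 and 3, differed from each other by little more than sampling noise (mean chi-square 1.15). siControl RPF replicates 2 and 3 differed by less than the sampling noise (mean chi-square 0.941) and were counted as 1 sample in each mean ± SD, which leaves n = 2 there. In the tests this pair entered as separate libraries unless it is said to be summed. The main RPF and TE p-values thus count it as 2 samples. The labels do not say whether replicates were separate cultures, so p-values measure the spread between these libraries, which may be technical.

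No member passed the test for a change after knockdown in transcripts (RNA, from the Input libraries), in footprints (RPF) or in translation efficiency (TE, the change in RPF less the change in RNA). In RNA 0 of 9 members tested were called, where 5.96% of 14759 genes were. In RPF the count was 0 of 10, against 1.66% of 20192 genes, and in TE it was 0 of 9, against 2.21% of 13395 genes. A call was an adjusted p under 0.05 in edgeR's quasi-likelihood test, adjusted over all genes tested. At an unadjusted p under 0.05 the member counts were 0, 2 and 1. Of all genes tested, 3017 of 14759 (RNA), 3251 of 20192 (RPF) and 2120 of 13395 (TE) met that threshold. The member counts are near or below these shares. DESeq2 called 0 members in each of the 3 comparisons as well. Without siIGF2BP3 RPF replicate 1 the count of members called was 1 of 10 in RPF and 1 of 9 in TE. In that setting 16.5% of 20615 genes were called in RPF and 9.99% of 13479 in TE, so these counts are near or below the background. The share of all genes called in RPF also depended on single libraries: 336 genes were called with all of them, 11–3410 with 1 left out, and 14 with siControl RPF replicates 2 and 3 summed. The members' median log2 fold change was -0.07 for RNA, 0.01 for RPF and 0.08 for TE, beside 0.00, 0.01 and 0.00 over all genes tested. In a culture, fewer cells with a transcript and less of it in each cell cannot be told apart.

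**Figure D1:**
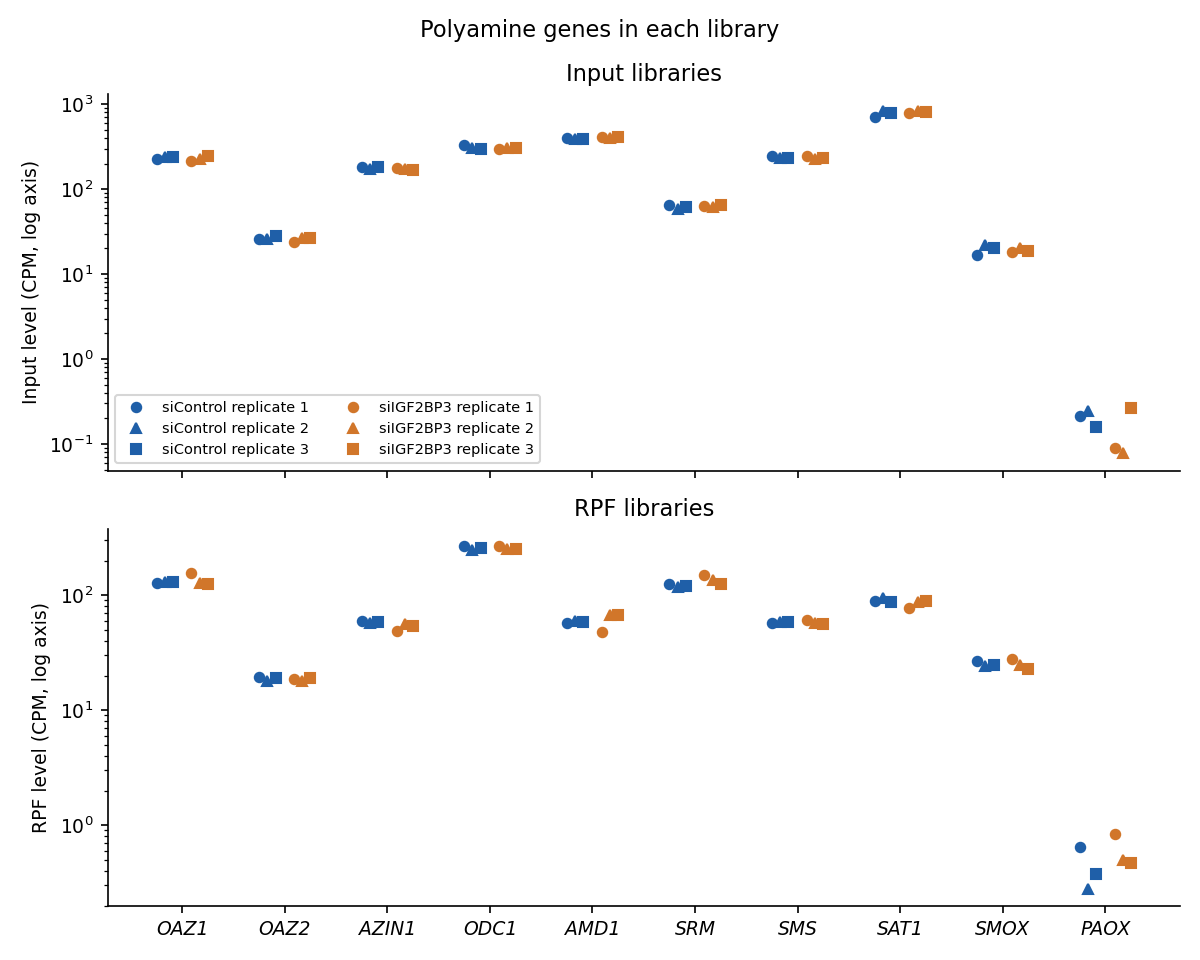
Level of each gene in CPM (log axis) in the 6 Input libraries (top) and the 6 RPF libraries (bottom); each mark is 1 library. PAOX lies below 1 CPM in all 12 libraries, and siIGF2BP3 RPF replicate 1 (orange circle) is the lowest RPF mark for AMD1, AZIN1 and SAT1 and the highest for OAZ1, SRM, SMS, SMOX and PAOX.

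OAZ1 (ENSG00000104904.12, chr19:2269509-2273490, plus strand), the main antizyme in most tissues, had Input levels of 224, 239 and 237 CPM with the control siRNA and of 216, 227 and 247 CPM after knockdown. Its RPF level was 129, 130 and 130 CPM in siControl and 157, 129 and 126 CPM in siIGF2BP3. The siControl footprint libraries lay close together, and of the siIGF2BP3 libraries only replicate 1 stood above them. The RPF log2 fold change was 0.10 ± 0.10 (SE; edgeR adjusted p = 0.692), and it was -0.03 ± 0.03 (adjusted p = 0.623) without siIGF2BP3 RPF replicate 1. The RNA log2 fold change was -0.07 ± 0.05 (adjusted p = 0.473). The TE log2 fold change was 0.16, with a 95% interval from -0.06 to 0.39, and 0.05 without that library.

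The first exon of OAZ1 is shared with an annotated readthrough gene (ENSG00000273734) that joins it to exons of SPPL2B. The shared stretch is 220 nt (chr19:2269525-2269744), and it held 146 of the 204 coding nt that precede the OAZ1 frameshift, or 71.6%. The readthrough gene was at 8.34 ± 1.15 CPM (SD, n = 3) in siControl Input and at 56.2 ± 0.32 CPM (n = 2) in siControl RPF. SPPL2B itself, which shares 1048 nt with that gene, had means of 9.24 CPM in siControl Input and 13.6 CPM over the 3 siControl RPF libraries. The readthrough gene thus had far more footprints than SPPL2B and a slightly lower Input mean. Whether these footprints lay on the exon shared with OAZ1 was not tested. In siIGF2BP3 RPF the readthrough gene was at 69.5, 56.0 and 54.0 CPM, with replicate 1 the highest, as it was for OAZ1. Adding its counts to OAZ1 left the RPF log2 fold change at 0.11 ± 0.10 and raised the siControl RPF/Input ratio from 0.554 to 0.767. JSRP1, on the opposite strand, also covers this exon, at means of 1.62 CPM in siControl Input and 0.534 CPM in siControl RPF, and strand was not stated for the counting.

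**Figure D2:**
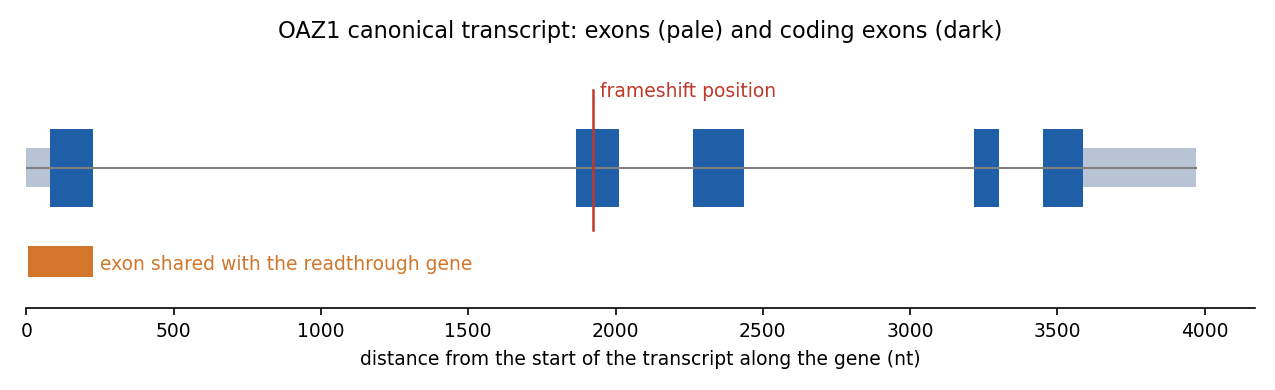
Map of the OAZ1 canonical transcript, with the distance along the gene in nt on the x axis, exons as pale boxes and coding exons as dark boxes. The orange bar is the 220 nt stretch shared with the readthrough gene, upstream of the red line at the frameshift position, where the base skipped by the annotated frame lies.

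OAZ2 (ENSG00000180304.14, chr15:64687573-64703281, minus strand), the second antizyme found in most tissues, had Input levels of 25.7, 25.9 and 27.9 CPM with the control siRNA and of 24.1, 26.9 and 26.6 CPM after knockdown. Footprints stood at 19.5, 18.05 and 19.2 CPM for siControl and 18.8, 17.9 and 19.0 CPM for siIGF2BP3. The conditions overlapped in both assays, and siIGF2BP3 RPF replicate 1 did not stand apart here. The RNA, RPF and TE log2 fold changes were -0.08 ± 0.08, -0.01 ± 0.06 and 0.07 ± 0.11, each with an edgeR adjusted p of at least 0.635.

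AZIN1 (ENSG00000155096.13, chr8:102826357-102893864, minus strand) resembles ODC1 without its activity and frees ODC1 by binding antizyme. It had Input levels of 180, 171 and 183 CPM with the control siRNA and of 178, 174 and 167 CPM after knockdown. Its RPF level was 59.8, 57.4 and 59.0 CPM in siControl and 48.6, 56.5 and 54.0 CPM in siIGF2BP3, so that all 3 knockdown libraries lay below all 3 controls. The RPF log2 fold change was -0.13 ± 0.05 (unadjusted p = 0.0412, edgeR adjusted p = 0.286), and -0.09 ± 0.03 (adjusted p = 0.0984) without siIGF2BP3 RPF replicate 1. RNA differed by -0.09 ± 0.05 (adjusted p = 0.288) and TE by -0.04 ± 0.08 (adjusted p = 0.854). AZIN1 and SRM were the 2 of 10 members whose RPF libraries did not overlap between conditions, a share below the 25.7% of all genes tested. In Input 0 members had ranges that did not overlap, against 25% of genes.

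ODC1 (ENSG00000115758.12, chr2:10439968-10448504, minus strand), the entry enzyme of the pathway, had the highest RPF level of the list. It was at 269, 245 and 258 CPM in siControl RPF and at 266, 250 and 250 CPM in siIGF2BP3 RPF. Input held 335, 304 and 296 CPM in siControl and 300, 302 and 308 CPM in siIGF2BP3. The knockdown libraries fell inside the spread of the controls in both assays. The RPF log2 fold change was 0.01 ± 0.06, with a 95% interval from -0.13 to 0.14 (edgeR adjusted p = 0.982), and the TE log2 fold change was 0.09 ± 0.07 (adjusted p = 0.622).

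AMD1 (ENSG00000123505.15, chr6:110874770-110895713, plus strand) encodes S-adenosylmethionine decarboxylase. Input held 405, 392.2 and 390 CPM in siControl and 412, 397 and 406 CPM in siIGF2BP3. Its RPF level was 57.7, 59.6 and 58.5 CPM in siControl and 47.4, 67.4 and 66.8 CPM in siIGF2BP3. Replicate 1 of the knockdown lay below all controls and replicates 2 and 3 above them. Over all libraries the RPF log2 fold change was 0.07 ± 0.11 (edgeR adjusted p = 0.833) and the TE log2 fold change 0.09 ± 0.11 (adjusted p = 0.758).

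Without siIGF2BP3 RPF replicate 1, AMD1 was the 1 member called, and it rose. The knockdown RPF libraries left, replicates 2 and 3, differed by little more than sampling noise (mean chi-square 1.15). The p-values of this setting may therefore understate the spread between separate samples. The RPF log2 fold change was then 0.19 ± 0.03 (edgeR adjusted p = 0.00318), in a comparison in which 16.5% of 20615 genes were called. The TE log2 fold change was 0.21 ± 0.05 (adjusted p = 0.0122), where 9.99% of 13479 genes were called. With siControl RPF replicates 2 and 3 also summed into 1 library, the values were 0.20 ± 0.04 (adjusted p = 0.00606) and 0.22 ± 0.06 (adjusted p = 0.0248). Without replicate 2 of the knockdown, in contrast, the RPF log2 fold change was -0.0050 ± 0.12 (adjusted p = 0.997), so that the call depended on which library was left out. The rows of 5 AMD1 pseudogenes held 11.97% of the summed RPF counts of AMD1 and its pseudogenes and 0.0651% of the Input counts. Adding them left the log2 fold change without siIGF2BP3 RPF replicate 1 at 0.21 ± 0.03 in RPF.

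SRM (ENSG00000116649.9, chr1:11054584-11060024, minus strand), spermidine synthase, had Input levels of 65.7, 58.7 and 61.4 CPM with the control siRNA and of 63.1, 61.6 and 65.4 CPM after knockdown. In the RPF libraries it had 125, 118 and 121 CPM in siControl and 151, 136 and 125 CPM in siIGF2BP3. The knockdown footprint libraries all lay above the controls, though the lowest of them (125.0 CPM) nearly met the highest control (124.7 CPM). The RPF log2 fold change was 0.20 ± 0.08 (unadjusted p = 0.0464, edgeR adjusted p = 0.302) and the TE log2 fold change 0.20 ± 0.10 (adjusted p = 0.303). Without siIGF2BP3 RPF replicate 1 they were 0.10 ± 0.04 (adjusted p = 0.0943) and 0.12 ± 0.07 (adjusted p = 0.292).

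SMS (ENSG00000102172.15, chrX:21940573-21994835, plus strand), spermine synthase, had Input levels of 244, 235 and 234 CPM with the control siRNA and of 245, 226 and 230 CPM after knockdown. Its RPF level was 57.6, 58.2 and 58.7 CPM in siControl and 60.7, 57.5 and 56.0 CPM in siIGF2BP3. The conditions overlapped in both assays, and the largest of its log2 fold changes, in TE, was 0.08 ± 0.07 (edgeR adjusted p = 0.643).

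**Figure D3:**
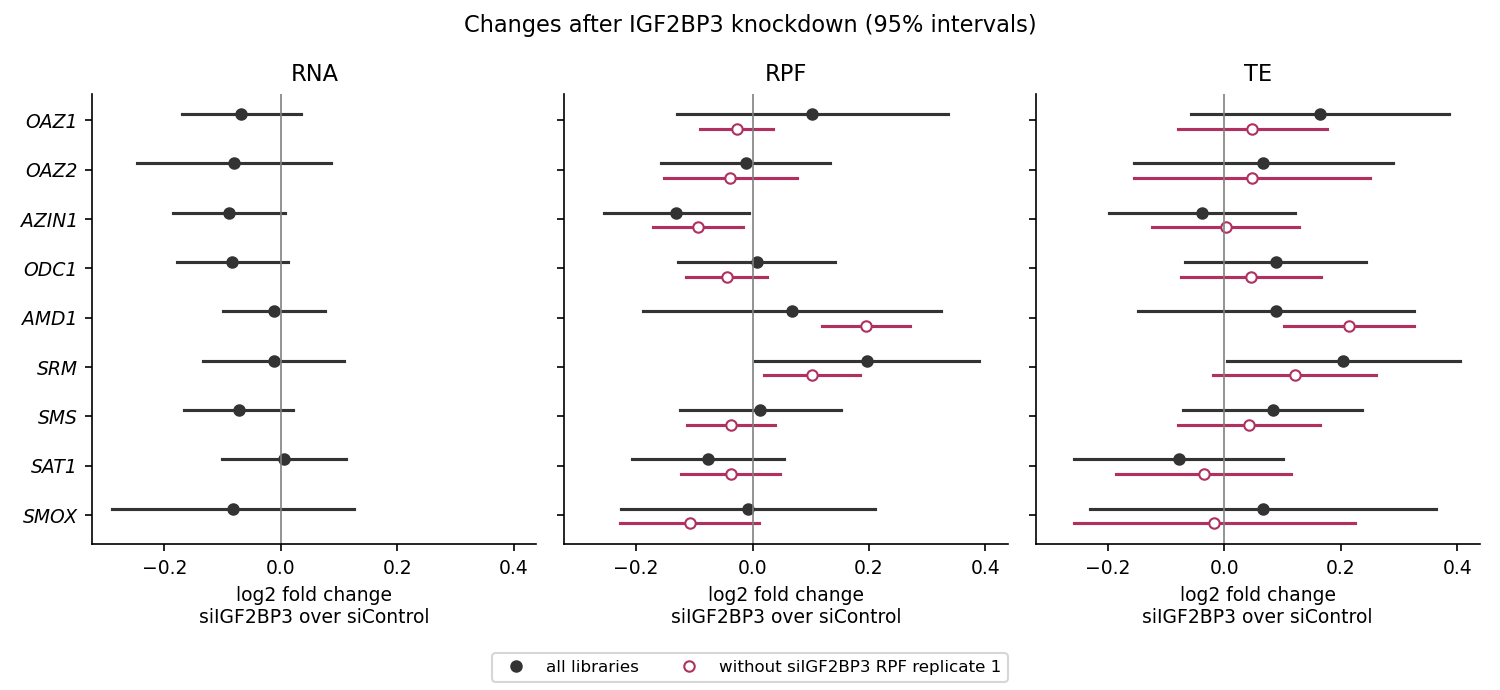
Log2 fold change of siIGF2BP3 over siControl (x axis) with its 95% interval from edgeR for the 9 members tested in all 3 comparisons; filled marks use all libraries and open marks leave out siIGF2BP3 RPF replicate 1. AMD1 is the gene whose open marks in RPF and TE (0.19 and 0.21) passed the test.

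SAT1 (ENSG00000130066.16, chrX:23783173-23786226, plus strand), the spermidine and spermine acetyltransferase, had the highest Input level of the list. Input held 711, 838 and 777 CPM in siControl and 785, 829 and 799 CPM in siIGF2BP3. In the RPF libraries it had 88.3, 94.3 and 87.9 CPM in siControl and 77.6, 87.6 and 88.2 CPM in siIGF2BP3. Replicate 1 of the knockdown was the lowest footprint library, and the conditions overlapped. The RNA log2 fold change was 0.00 ± 0.05 (edgeR adjusted p = 0.974) and the RPF log2 fold change -0.08 ± 0.06 (adjusted p = 0.578).

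SMOX (ENSG00000088826.17, chr20:4120980-4187747, plus strand), spermine oxidase, had Input levels of 16.8, 22.0 and 20.0 CPM with the control siRNA and of 18.3, 20.3 and 18.9 CPM after knockdown. Its RPF level was 26.8, 24.4 and 24.6 CPM in siControl and 27.8, 24.6 and 22.6 CPM in siIGF2BP3. The conditions overlapped, and the TE log2 fold change was 0.07, with a 95% interval from -0.23 to 0.36.

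PAOX (ENSG00000148832.15, chr10:133379234-133391694, plus strand), which oxidises acetylated polyamines, was close to undetected. Input held 0.213, 0.248 and 0.159 CPM in siControl and 0.0891, 0.0775 and 0.264 CPM in siIGF2BP3. In the RPF libraries it had 0.651, 0.281 and 0.375 CPM in siControl and 0.844, 0.496 and 0.471 CPM in siIGF2BP3. It passed the filter on low counts in RPF alone, with a log2 fold change of 0.29 and a 95% interval from -0.54 to 1.13. These few counts thus exclude neither a fall nor a rise within that interval. A neighbouring readthrough gene (ENSG00000254536), which shares 158 nt of its exons, had means of 12.6 CPM in siControl Input and 18.05 CPM in siControl RPF, and it also shares 1223 nt with MTG1.

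Levels were compared between genes per kb of the canonical transcript for Input and per kb of its coding sequence for RPF. In siControl Input the order was SAT1 at 739 CPM per kb, OAZ1 at 203, SMS at 140, ODC1 at 126, AMD1 at 116, SRM at 49.2, AZIN1 at 42.4, OAZ2 at 13.7, SMOX at 9.05 and PAOX at 0.113 CPM per kb. The ranges of the libraries did not overlap between any neighbours in that order. In siControl RPF the highest were OAZ1 at 189 ± 1.27 (SD, n = 2), ODC1 at 188 ± 9.10 and SAT1 at 175 ± 3.90 CPM per kb of coding sequence. OAZ1 and ODC1 overlapped in range, as did ODC1 and SAT1. With the counts of the readthrough gene that shares its first exon added, OAZ1 stood at 271 CPM per kb, above ODC1, so its place in this order depends on how that exon is counted. SRM followed at 135, AMD1 at 58.3, SMS at 52.8, AZIN1 at 43.9, OAZ2 at 33.6, SMOX at 15.4 and PAOX at 0.319 CPM per kb, with no overlap between these neighbours.

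The ratio of RPF to Input CPM differed far more between members than between conditions. In siControl it was 0.116 for SAT1, with a range of 0.105–0.133 over all pairings of an RPF and an Input library. AMD1 followed at 0.148 (0.143–0.153), SMS at 0.244 (0.236–0.251), AZIN1 at 0.332 (0.313–0.349) and OAZ1 at 0.554 (0.537–0.580). OAZ2 stood at 0.720 (0.646–0.761), ODC1 at 0.837 (0.732–0.911), SMOX at 1.31 (1.11–1.60) and SRM at 1.97 (1.79–2.13). OAZ2 and ODC1 were the only neighbours in this order whose ranges overlapped. With the readthrough counts added, OAZ1 was at 0.767 (0.745–0.808), between OAZ2 and ODC1 and overlapping both. Among the 9391 protein-coding genes with at least 5 CPM in each assay the median ratio was 0.935, with 0.278 at the 10th percentile and 2.70 at the 90th.

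Against that background 7 of 9 members lay below the median in either condition, and SMOX and SRM above it. SAT1 was at percentile 1.4, AMD1 at 2.8 and SMS at 7.9 in siControl, and SRM at 81.6. The AMD1 ratio leaves out its pseudogene rows, with 11.97% of the summed RPF counts and 0.0651% of Input. With those rows added it would be higher. In siIGF2BP3 the order of the 9 genes was the same, from 0.105 for SAT1 to 2.17 for SRM, around a median of 0.889. There OAZ1 (0.596) and OAZ2 (0.719) overlapped in range. IGF2BP3 itself, in contrast, went from 0.589 to 0.246.

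The share of a transcript that is coding enters this ratio, because Input reads come from the whole transcript and footprints from the coding sequence. AMD1, OAZ2 and AZIN1 have long untranslated parts. The canonical AMD1 transcript of 3423 nt carried 1002 coding nt, that of OAZ2 567 of 1934 nt and that of AZIN1 1344 of 4196 nt. RPF per kb of coding sequence over Input per kb of transcript was therefore computed as well, a choice made after seeing the data. The siControl values were 0.237 for SAT1, 0.378 for SMS, 0.504 for AMD1, 0.929 for OAZ1 and 1.04 for AZIN1. ODC1 was at 1.50, SMOX at 1.70, OAZ2 at 2.46 and SRM at 2.74, around a median of 2.14 over the same 9391 genes. With the readthrough counts added OAZ1 was at 1.29 (1.25–1.36), above AZIN1 and overlapping ODC1. Again 7 of 9 members lay below the median, but OAZ2 had moved above it and SMOX below it. SAT1, SMS and AMD1 stayed lowest, at percentiles 1.8, 4.4 and 7.3. SRM stayed highest of the 9 members, but at percentile 60.9 and overlapping OAZ2 in range.

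**Figure D4:**
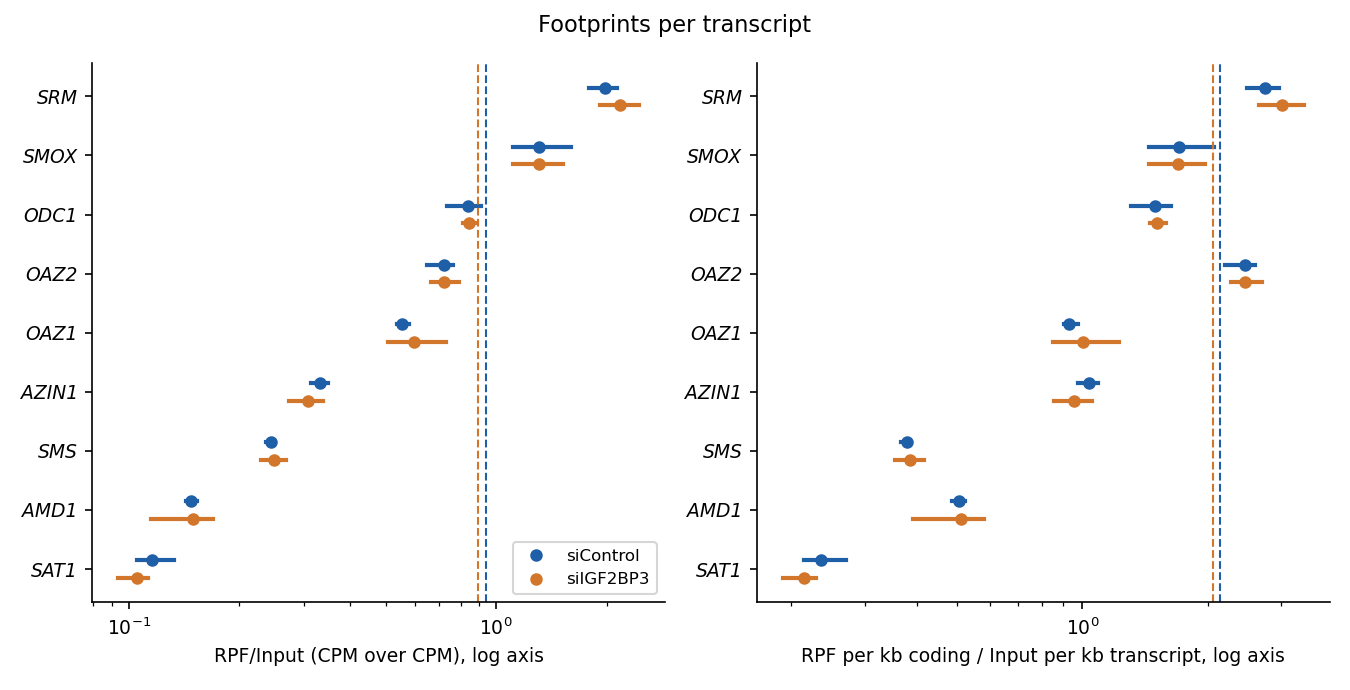
RPF/Input ratio (left, CPM over CPM) and the same ratio per kb of coding sequence and of transcript (right), both on log axes, for the 9 members above 5 CPM; dots are ratios of group means, bars the range over all pairings of libraries, and dashed lines the median of 9391 protein-coding genes (0.935 and 2.14 in siControl). Among the 9 members SAT1, AMD1 and SMS lie lowest in both panels and SRM highest, though in the right panel SRM overlaps OAZ2 in range.

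Other genes of polyamine metabolism were read from a list of 33: precursor supply, methylthioadenosine salvage, hypusine formation, transport and further antizyme and acetyltransferase genes. In each comparison 28 of them were tested and 1 was called, where 5.96% (RNA), 1.66% (RPF) and 2.21% (TE) of all genes were, so that a count of 1 is near the background, with a median log2 fold change of -0.03 for RNA, -0.01 for RPF and -0.04 for TE. SAT2, a relative of SAT1, rose in RNA by 0.25 ± 0.06 (log2, SE; edgeR adjusted p = 0.00967), from 51.5, 52.6 and 54.8 CPM to 68.1, 63.5 and 64.3 CPM. Its RPF level did not pass the test (0.10 ± 0.06). SLC7A2, which carries arginine and other cationic amino acids into cells, fell in RPF by 0.30 ± 0.06 (adjusted p = 0.0470), from 140, 141 and 139 CPM to 101, 118 and 118 CPM. MAT2A, which makes S-adenosylmethionine, fell in TE by 0.35 ± 0.09 (adjusted p = 0.0474). Its RPF level went from 87.4, 85.1 and 90.4 CPM to 67.2, 78.1 and 76.9 CPM, and its Input level from 42.0, 43.99 and 46.2 CPM to 50.7, 46.8 and 51.8 CPM. With any RPF library other than siIGF2BP3 replicate 1 left out, 0 related genes were called in RPF, and in TE 0 were called without any library other than siIGF2BP3 RPF replicates 1 and 3. With siControl RPF replicates 2 and 3 summed, 0 related genes were called in RPF, SLC7A2 included.

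EIF5A, the protein modified to hypusine from spermidine, had Input levels of 247, 252 and 253 CPM with the control siRNA and of 240, 245 and 245 CPM after knockdown. Footprints stood at 439, 434 and 444 CPM for siControl and 390, 436 and 441 CPM for siIGF2BP3, with replicate 1 the lowest. Without siIGF2BP3 RPF replicate 1, where 16.5% of all genes were called in RPF and 9.99% in TE, 4 of the 29 related genes tested fell in RPF: SLC7A2 by 0.25, MAT2A by 0.18, ALDH18A1 by 0.14 and ADI1 by 0.12 on the log2 scale, while of 28 tested in TE, MAT2A fell and SLC3A2 rose (0.25). Neither count exceeds its background share.

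Among the genes whose levels moved most like OAZ1 over the 12 libraries, after centring log2(CPM + 0.5) within each assay, were SLC25A6 (Pearson r = 0.97) and ATP6V0C (0.96) of 9391 compared. For AMD1 they were SEC31A, YES1 and IPO5 (each 0.97), and for ODC1 COX5A (0.90), SRSF8 (0.88) and MDH2 (0.87). The points share libraries and depth, and siIGF2BP3 RPF replicate 1 is among them, so these values are a description.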

How the data were processed

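The deposited files hold expected counts per gene (fractional where a read was divided between genes), which the authors made from the 12 libraries. The submitters' processing notes name cutadapt, STAR, featureCounts and hg38; versions and the strand setting are not given in the sources used here. Groups came from the sample titles. Counts were rounded for the tests. Genes were named through GENCODE 44 on GRCh38, from which sequences and lengths were also read.

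RNA (6 Input libraries) and RPF (6 RPF libraries) were each tested with edgeR 4.0.16 (robust quasi-likelihood fit, TMM factors, filterByExpr, Benjamini-Hochberg adjustment, threshold 0.05). TE was the interaction of assay and knockdown over 12 libraries. The fits were run on simulated counts with the same dispersion for every gene. No outlying library and no near-identical pair was simulated, so that run does not cover these features of the RPF libraries. Alternatives were DESeq2 1.42.0, limma 3.58.1 on log2 ratios, other factors, filters, a length offset, a replicate block, added or summed counts, and leaving out each library.

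The genes named were IGF2BP3, the 10 members, related genes called in a comparison, EIF5A and MAT2A, and for OAZ1, ODC1 and AMD1 the 3 genes of most similar pattern, of which 1 is not reported here. OAZ3, the genes sharing exons with a member, and ALDH18A1, ADI1 and SLC3A2 were named after their values were seen. Members and lists were chosen with earlier results of these data known. Input fragments are counted over exons, and cycloheximide can alter where footprints lie; the effect on these values was not tested. The precision of each value is set by the counts above and by 2 or 3 samples a group.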

Additional observations from a re-analysis of the deposited data

How the results depend on the processing

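Of the members' log2 fold changes, AMD1 was the 1 that gained a call under an alternative, always without siIGF2BP3 RPF replicate 1. Members called went from 0 to 1 for both RPF and TE in that setting, where 16.5% and 9.99% of all genes were called. The counts stayed 1 and 1 with siControl RPF replicates 2 and 3 summed as well, or with AMD1 pseudogene counts added as well. Both combined settings were chosen after seeing the data. Leaving out each library in turn gave 0–0 members for RNA, 0–1 for RPF and 0–1 for TE, 1–2, 0–4 and 0–2 related genes, and 444–907, 11–3410 and 126–1347 genes in all, and 7–7 members below the median ratio in either condition. Genes called in RPF (336) became 667 by DESeq2, 14 with siControl RPF replicates 2 and 3 summed and 3015 with siIGF2BP3 RPF replicate 1 also left out; genes called in TE (296) became 141 and 1079 in the last 2 settings and 0 by limma on log2 ratios, where 1926 had an unadjusted p under 0.05. Related genes called in RNA (1) became 3 without a filter. In RPF they became 0 with a length offset, 0 with the summed controls and 4 with replicate 1 also left out. In TE they became 0 with RLE factors, no filter, summed controls, TMM over 12 libraries or limma, and 2 by DESeq2 or with summed controls and replicate 1 left out. The cause was not tested.

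Reversals in sign were all between uncalled values. The ranges below also hold values that kept their sign, among them the called RPF value of 0.195 for AMD1. RNA SRM was 0.0232 with a length offset. RNA SAT1 was -0.0018 with RLE factors or DESeq2 and -0.0044 without a filter. RPF OAZ2 was 0.0070 with a length offset, RPF ODC1 -0.00047 without a filter and -0.00056 with a length offset, RPF SMOX 0.0040 at a mean of at least 5 CPM, and TE AMD1 -0.0067 by limma. Leaving out 1 library moved RNA AMD1 between -0.0282 and 0.00063, SRM between -0.0520 and 0.0208, SAT1 between -0.0637 and 0.0644 and SMOX between -0.188 and 0.0142. It moved RPF OAZ1 between -0.0273 and 0.174, OAZ2 between -0.0386 and 0.0255, ODC1 between -0.0448 and 0.0336, AMD1 between -0.0050 and 0.195, SMS between -0.0374 and 0.0511 and SMOX between -0.108 and 0.0720. TE AZIN1 ran from -0.0745 to 0.0023 and TE SMOX from -0.0257 to 0.177.

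Replicate numbers did not pair the Input libraries: same-numbered siControl and siIGF2BP3 libraries deviated together with r = 0.05, -0.0060 and -0.04. In RPF these values were 0.15, 0.11 and 0.04, and siControl replicate 1 had r = -0.15 and -0.13 with siIGF2BP3 replicates 2 and 3. There siControl replicates 1 and 2 correlated best with their own number and replicate 3 did not, so some pairing in RPF is possible. With the number as a replicate block, the related genes called numbered 2 for RNA, 0 for RPF and 0 for TE, and the members called 0 in each. Depth limits PAOX most, at under 1 CPM.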
